A study of Mus musculus with 6 samples.

Results

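Genes that mark adipocytes, the lipid-storing cells of fat tissue, were described in 6 mouse tumours. The list held 35 genes, chosen by their known function with earlier results of these data in view, and took in lipid droplet proteins, lipases, enzymes of triglyceride synthesis, adipokines, transcription factors and receptors. A gene was measured where a probe set of the array carried its symbol and no other, which gave 62 probe sets for 32 of the 35 genes, among 45037 probe sets for 18193 genes in all. Plin1, Cfd and Adrb3 were not measured in this way. For a gene with several, the brightest on average stood for it.

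The tumours were grown from GLMT1, a single line named for a lung metastasis of GRS/A mice, injected under the back skin of male mice. The hosts were GRS/A mice with wild-type tenascin-C (WT, 3 tumours) or GRS/A-TgH(TnC) mice, which are deficient in it (TNKO, 3 tumours). Mice were 8 weeks old at the start and 10 weeks old in the sample labels, and 100 microlitres of a suspension of 1e+07 cells per ml went into each. The labels describe a lack of tenascin-C, a glycoprotein of the extracellular matrix, in the host and not in the tumour cells. The excised tissue is not described as sorted, so RNA of host cells under the skin can be part of it.

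White adipocytes take up fatty acids that lipoprotein lipase frees from lipoproteins in the blood, join them to glycerol as triglyceride, and keep the triglyceride in a droplet coated with perilipin and CIDE proteins. Adipose triglyceride lipase and hormone-sensitive lipase release the fatty acids again. PPARG and CEBPA are the transcription factors that drive fat cell differentiation and keep many of these genes on, and the cells secrete adiponectin, leptin and, in mice, resistin. Fat lies directly below mouse back skin.

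Binding sites of PPARG and of C/EBP factors are the sequence features that textbooks give for adipocyte promoters, so the promoters of the members were searched. The 250 bases before each annotated start were read from a RefSeq promoter table of the build GRCm38.p6, which held 28 promoters for 22 of the 35 members, and 20 of these 22 genes were measured. Matches were sought on both strands. The direct repeat bound by PPARG with RXR, written as AGGTCA, any 1 base and AGGTCA again, was found in 0 of the 28 member promoters and in 11 of 32841 promoters in all (0.0335%). TTGCGCAA, a palindrome bound by C/EBP factors, was found in 1 of 28, that of Lep, and in 0.164% of all promoters. The looser TTGCNNAA, which also matches the palindrome, was found in 5 of 28 (17.9%) and in 9.57% of all promoters. Members with that looser match were Lep, Retsat, Cidec, Pparg and Plin1. A match in these letters is a description of the window and not a binding site. The promoters of 3 members with a match are given with that of Adipoq, the member that varied most between tumours, which has none. All are 5′ to 3′, and capitals mark the matches.
Lep, chr6:29059971-29060220, plus strand: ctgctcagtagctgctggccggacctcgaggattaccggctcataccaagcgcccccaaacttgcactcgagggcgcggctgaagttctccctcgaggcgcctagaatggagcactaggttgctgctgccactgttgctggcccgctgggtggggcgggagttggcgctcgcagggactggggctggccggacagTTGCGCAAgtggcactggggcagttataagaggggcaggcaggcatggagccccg
Cidec, chr6:113434765-113435014, minus strand: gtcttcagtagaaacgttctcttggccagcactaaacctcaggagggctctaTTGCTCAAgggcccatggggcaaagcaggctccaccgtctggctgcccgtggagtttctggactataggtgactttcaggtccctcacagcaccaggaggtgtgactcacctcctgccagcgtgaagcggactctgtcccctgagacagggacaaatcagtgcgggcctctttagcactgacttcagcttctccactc
Pparg, chr6:115421816-115422065, plus strand: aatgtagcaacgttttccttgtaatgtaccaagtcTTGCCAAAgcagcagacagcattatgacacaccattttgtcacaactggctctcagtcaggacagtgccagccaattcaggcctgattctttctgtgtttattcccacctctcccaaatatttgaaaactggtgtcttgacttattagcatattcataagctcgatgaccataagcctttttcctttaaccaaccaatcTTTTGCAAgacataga
Adipoq, chr16:23146286-23146535, plus strand: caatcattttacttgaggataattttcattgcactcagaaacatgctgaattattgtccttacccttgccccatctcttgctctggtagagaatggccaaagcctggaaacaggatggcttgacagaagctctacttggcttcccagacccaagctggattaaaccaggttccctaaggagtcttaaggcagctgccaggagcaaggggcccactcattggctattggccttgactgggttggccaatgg
In the Lep promoter the palindrome lies at bases -55 to -48 before the start. In Pparg the matches lie at -215 to -208 and at -16 to -9, and in Cidec at -198 to -191. Each of these 4 genes was highest in TNKO tumour 1 and next highest in TNKO tumour 2, with or without a match in this window. Retsat, the other measured member with a match, was highest in WT tumour 1 and next in TNKO tumour 1, with a span of 9.82e-06. Cidec and Pparg also have annotated starts without a match in the window. Whether a match goes with the order of tumours was not tested.

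The values are deposited on a log2 scale on which arrays differ very little: the median gene spanned 5.73e-06 units from the lowest to the highest of the 6 tumours. Amounts are therefore given as deposited values or as differences in deposited log2 units, which cannot be read as fold changes. Levels of different probe sets were not read as relative amounts of RNA. Brightness picked the probe set of a gene, spans were compared between genes, and levels of marker lists were summed within each tumour. Tumours of the TNKO group stood apart in genes of other tissues: TNKO tumour 3 was high in 9 of 14 hair and epidermis genes, with trichohyalin (Tchh) at 11.57 against at most 5.66 elsewhere, and TNKO tumours 1 and 2 were low in skeletal muscle genes. The median span of the adipocyte genes was 0.00557, at the percentile 98.7 of all genes, and 20 of the 32 spanned at least 0.001, against 2.58% of all genes. At a span of at least 0.1 there were 71 genes on the whole array (0.39%), and 9 of them were adipocyte genes, namely Adipoq, Fabp4, Cidea, Pck1, Lpl, Cd36, Car3, Ucp1 and Plin4. TNKO tumours 1 and 2 were the 2 highest in all 9 of them, against 22.5% of the 71, where 21.1% had these tumours as the 2 lowest, and 81.7% were higher in TNKO hosts in mean. Of the 71, 9.86% had the order of tumours that Adipoq had. Span and order were taken from the same values, so these counts are not independent of the span. The other 12 members spanned less than 0.001, down to 2.09e-06 for Tshr. In mean level, 21 of the 32 members lay below the median of all genes, 7.09 (9096 of 18193 genes did). Lep stood near 5.97 and Pparg near 5.92 in all 6 tumours, and the lowest value on any array was 5.20. How much of such a value is background was not tested.

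**Figure D1:**
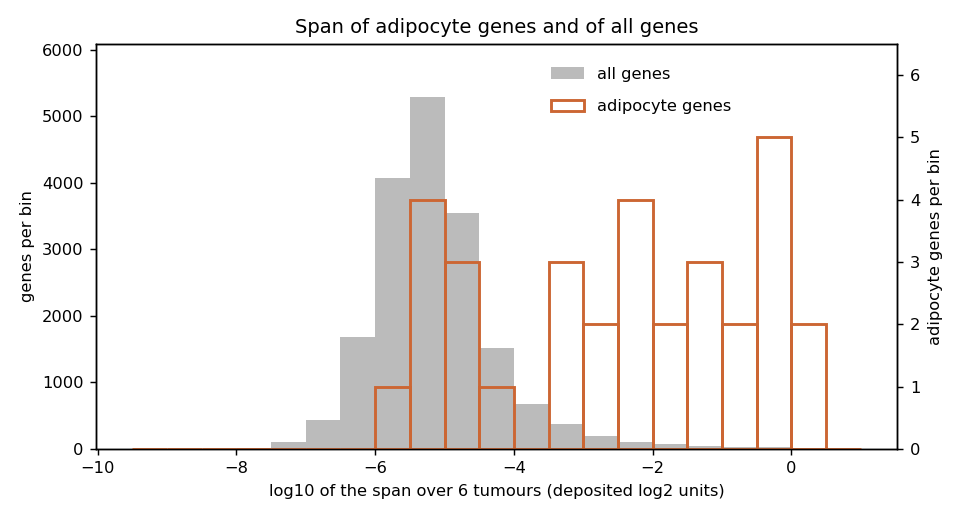
Histogram of the span over the 6 tumours, as log10 of deposited log2 units, for all 18193 genes (grey, left axis) and for the 32 adipocyte genes (outlined, right axis). Adipocyte genes lie both in the main body of genes and far to its right, with 20 of 32 at a span of at least 0.001.

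The members shared their highest tumours more than a full order. TNKO tumours 1 and 2 were the 2 highest tumours in 23 of the 32 genes (15.2% of all genes), and TNKO tumour 1 was the highest of all in 26 (3609 of all 18193 genes). Among the members that spanned at least 0.001 this held in 20 of 20, against 31.1% of the 470 genes on the array with such a span. Of the 12 narrower members 3 showed it, against 14.8% of genes of that kind. Span and order come from the same values, so a member can reach 0.001 because TNKO tumours 1 and 2 are high. In Pnpla2, Sncg and Lep the remaining tumours lay at most 0.000426, 0.000491 and 0.000788 above the lowest. This limits every count among members chosen by span. WT tumour 3 was lowest in 21 of the 32 members (3930 of all genes), and WT tumour 1 was the highest of the WT tumours in 27 (5528 of all genes). The full order of Adipoq, from TNKO 1 through TNKO 2, WT 1, TNKO 3 and WT 2 to WT 3, was found in 13 of the 32 members, Adipoq itself counted here and in every count of this order, and in 110 of all 18193 genes (0.605%). Among members that spanned at least 0.001 it was found in 12 of 20, against 6.81% of genes with such a span. TNKO tumour 3 lay within the range of the WT tumours in 23 of the 32 members (38.8% of all genes) and in 15 of the 20 wider ones (44.9% of genes with such a span). In tissue RNA, more fat cells in the excised piece and more of these RNAs per fat cell cannot be told apart.

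**Figure D2:**
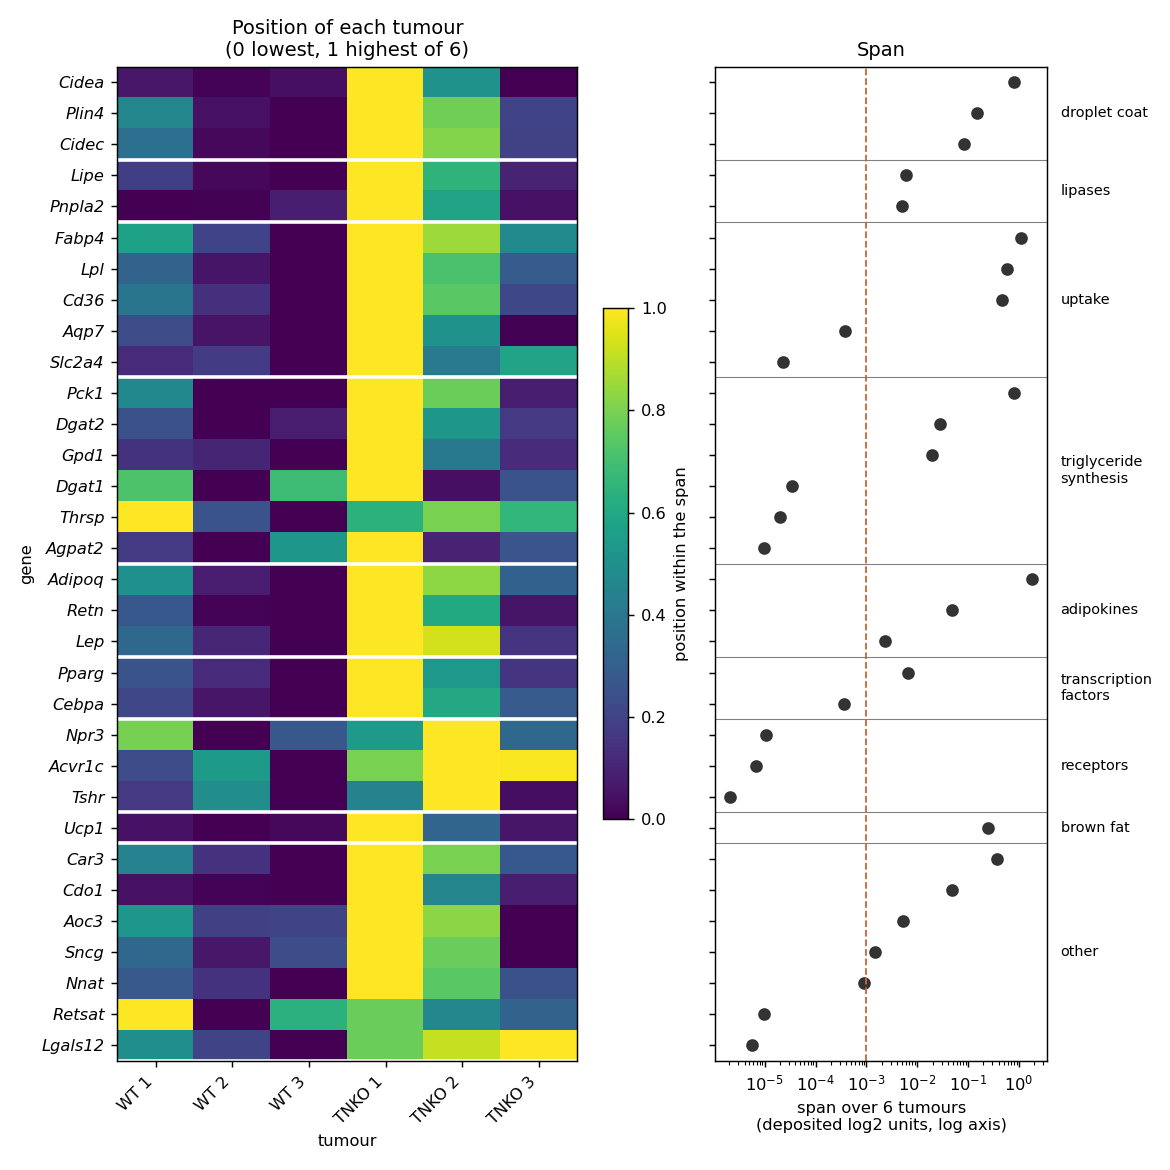
Left, the position of each tumour between the lowest (0) and the highest (1) tumour, for the 32 measured adipocyte genes grouped by role. Right, the span of each gene on a log axis in deposited log2 units, with a dashed line at 0.001; genes to the right of it are highest in TNKO 1 and next in TNKO 2.

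Genes for the uptake of fat gave some of the widest differences. Fabp4, the cytosolic fatty acid carrier of adipocytes, which endothelial cells and macrophages also express, stood at 9.16, 8.76 and 8.54 in WT tumours 1, 2 and 3 and at 9.62, 9.46 and 9.06 in TNKO tumours 1, 2 and 3. TNKO tumours 1 and 2 were above every WT tumour, while TNKO tumour 3 was below WT tumour 1. The group means were 8.82 ± 0.313 and 9.38 ± 0.291 (SD, n = 3 each), a difference of 0.56 (SE 0.231, limma adjusted p = 0.276), which did not pass. Lpl, lipoprotein lipase, stood at 8.35, 8.20 and 8.17 in WT hosts and at 8.74, 8.57 and 8.33 in TNKO hosts. Its groups overlapped through the same pair of tumours, WT 1 and TNKO 3, and it differed by 0.31 (SE 0.122, limma adjusted p = 0.259). Cd36, a fatty acid transporter that macrophages and endothelium carry too, read 6.93, 6.81 and 6.75 against 7.21, 7.09 and 6.85. It was ordered as Fabp4 was. Aqp7, the glycerol channel of adipocytes, followed with a span of 0.000374, and its TNKO tumour 3 lay near the lowest tumour. Slc2a4, the insulin-responsive glucose transporter of fat and muscle, spanned 2.33e-05. Its 3 TNKO tumours were all above the WT tumours, by a mean of 1.32e-05 (limma adjusted p = 0.185).

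**Figure D3:**
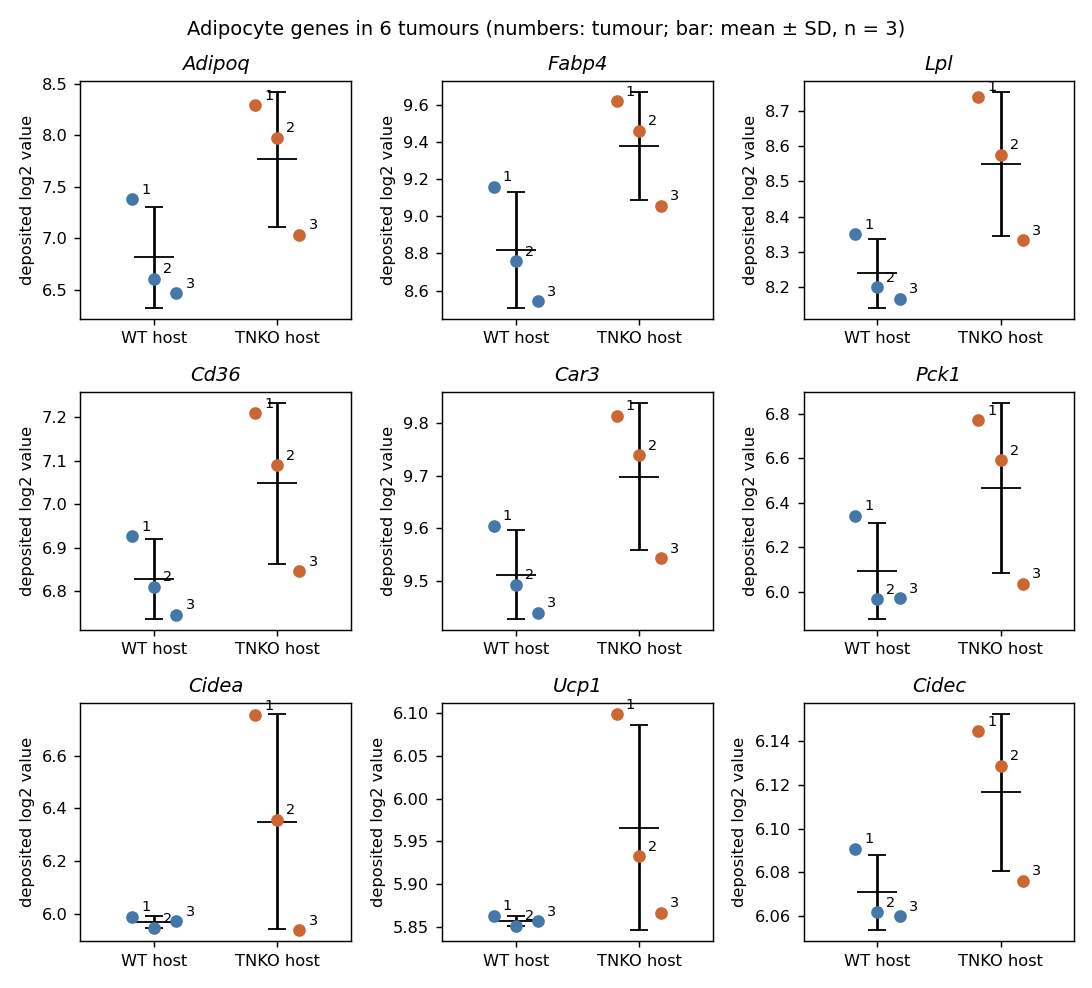
Deposited log2 values of 9 adipocyte genes in each tumour, with the mean ± SD of each host group (n = 3) and each tumour's number; each panel has its own axis, which does not start at 0. TNKO tumours 1 and 2 are highest in every panel, and TNKO tumour 3 lies below WT tumour 1 in all but Ucp1.

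Proteins that coat the droplet followed the same tumours. Plin4, a perilipin, stood at 6.54, 6.48 and 6.48 in WT hosts and at 6.63, 6.59 and 6.51 in TNKO hosts. Cidec, which enlarges droplets by passing lipid between them, read 6.09, 6.06 and 6.06 against 6.14, 6.13 and 6.08. In both genes WT tumour 1 separated from the other WT tumours and TNKO tumour 3 lay below it. Cidea, the related protein that is abundant in brown fat, differed in shape: 5.99, 5.95 and 5.97 in WT hosts, and 6.75, 6.36 and 5.94 in TNKO hosts. The WT tumours were close together, TNKO tumour 1 stood far above TNKO tumour 2, and TNKO tumour 3 was the lowest of all. Cidea differed by 0.38 between the groups (SE 0.221, limma adjusted p = 0.41). Both lipases were highest in TNKO tumours 1 and 2. Lipe, hormone-sensitive lipase, lay 0.00598 and 0.0039 above its lowest tumour there and 0.000607 above it in TNKO tumour 3, with WT tumours at 0.00112, 0.000129 and 0. Pnpla2, adipose triglyceride lipase, lay 0.00511 and 0.00298 above its lowest tumour, and its other 4 tumours were within 0.000426 of each other.

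Triglyceride synthesis genes differed widely in span. Pck1, which makes the glycerol backbone from small precursors in fat, stood at 6.34, 5.97 and 5.97 in WT hosts and at 6.77, 6.59 and 6.04 in TNKO hosts. WT tumour 1 was well above the other WT tumours. Dgat2, which catalyses the last step of triglyceride synthesis, lay 0.0277, 0.0146 and 0.0046 above its lowest tumour in TNKO tumours 1, 2 and 3, and 0.00688, 0 and 0.00224 above it in the WT tumours. Gpd1, which makes glycerol 3-phosphate from glycolysis, lay 0.0195, 0.00789 and 0.00246 above its lowest in TNKO hosts, and at most 0.00283 above it in WT hosts. Dgat1, an unrelated enzyme for the same step that many tissues express, spanned only 3.41e-05 and differed by -1.26e-06 (limma adjusted p = 0.972). Agpat2, an acyltransferase earlier in the pathway, spanned 9.51e-06. For Thrsp, a regulator of lipid synthesis, the brightest probe set spanned 2.03e-05, while its dimmest lay 0.452 and 0.186 above its lowest tumour in TNKO tumours 1 and 2 and at most 0.0243 above it in the other 4.

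Adipokine genes were ordered alike over the 6 tumours. Adipoq, which encodes adiponectin and is made by fat cells, had the widest span of the members, 1.83. It stood at 7.38, 6.60 and 6.46 in WT hosts and at 8.29, 7.98 and 7.03 in TNKO hosts. WT tumour 1 was nearer to TNKO tumour 3 than to WT tumours 2 and 3. The means were 6.81 ± 0.492 and 7.77 ± 0.654 (SD, n = 3 each), a difference of 0.95 (SE 0.441, limma adjusted p = 0.321). Retn, resistin, read 6.57, 6.56 and 6.56 in WT hosts and 6.61, 6.59 and 6.56 in TNKO hosts. Lep, leptin, lay 0.00237, 0.00221 and 0.000359 above its lowest tumour in TNKO hosts and 0.000788, 0.000255 and 0 above it in WT hosts. Retn and Lep both had the order of Adipoq over the 6 tumours.

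Both transcription factors were highest in the same pair of tumours, TNKO 1 and 2. Pparg lay 0.00666, 0.00356 and 0.00101 above its lowest tumour in TNKO hosts and 0.0017, 0.000811 and 0 above it in WT hosts, in the order of Adipoq. Cebpa lay 0.000354, 0.000214 and 0.000102 above its lowest in TNKO hosts and 7.53e-05, 2.2e-05 and 0 above it in WT hosts. In Cebpa the groups did not overlap. Its difference was 0.000191 (SE 7.14e-05, limma adjusted p = 0.243). Set side by side, 12 of the 16 lipid storage genes (droplet coat, lipases, uptake and synthesis) and 5 of the 5 adipokine and transcription factor genes had TNKO tumours 1 and 2 as the 2 highest. The order of Adipoq was found in 7 of the 16 and in 4 of the 5. The 4 storage genes without the 2 highest tumours were Dgat1, Agpat2, Thrsp and Slc2a4, and none of them spanned more than 3.41e-05. The median position of TNKO tumour 2, on a scale from the lowest tumour at 0 to the highest at 1, was 0.618 in the storage genes and 0.608 in the adipokine and transcription factor genes. TNKO tumour 3 lay at 0.197 and 0.152 and WT tumour 1 at 0.284 and 0.275.

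Members differed in how far TNKO tumour 2 followed TNKO tumour 1. Among the 20 members that spanned at least 0.001, TNKO tumour 2 stood nearest to TNKO tumour 1 in Lep (position 0.931), Fabp4 (0.852), Adipoq (0.829), Aoc3 (0.826) and Cidec (0.813). It stood lowest in Ucp1 (0.327), Gpd1 (0.405), Cdo1 (0.455) and Cidea (0.515). Ucp1 is the uncoupling protein that brown fat uses to make heat. It stood at 5.86, 5.85 and 5.86 in WT hosts and at 6.10, 5.93 and 5.87 in TNKO hosts. All 3 TNKO tumours were above all WT tumours, TNKO tumour 3 by little, and the difference was 0.11 (SE 0.0646, limma adjusted p = 0.421). Cdo1, cysteine dioxygenase, lay 0.0479, 0.0218 and 0.00406 above its lowest tumour in TNKO hosts and at most 0.00215 above it in WT hosts, so its groups did not overlap either. Positions depend on how strongly the deposited scale compresses each probe set, so the order of members in them is a description.

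Of the remaining members, Car3, a carbonic anhydrase abundant in fat and also in muscle, stood at 9.60, 9.49 and 9.44 in WT hosts and at 9.81, 9.74 and 9.54 in TNKO hosts, in the order of Adipoq. Nnat, neuronatin, had that order too with a span of 0.000903. Aoc3, a surface amine oxidase of adipocytes and vessel walls, and Sncg, gamma-synuclein, spanned 0.00516 and 0.00146. In both, TNKO tumours 1 and 2 were highest and TNKO tumour 3 was the lowest of all 6 tumours. The receptors varied little in their brightest probe sets, by 6.87e-06 for Acvr1c, a receptor for activin-like ligands, 1.06e-05 for Npr3, which clears natriuretic peptides, and 2.09e-06 for Tshr, the thyrotropin receptor. Lgals12, a galectin of the droplet, spanned 5.56e-06 and Retsat, retinol saturase, 9.82e-06. Retsat and Dgat1 were the 2 members with a lower mean in TNKO hosts.

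The brightest probe set of a gene was not always the one that varied most. In 6 of the 18 genes with several probe sets a dimmer one spanned more than the brightest, among them Npr3 (0.0145), Lgals12 (0.000426), Tshr (0.000138) and Acvr1c (0.000122). In these 4 and in Thrsp the wider probe set had TNKO tumours 1 and 2 as its 2 highest. The wider one of Dgat1 (0.000136) went the other way, with every TNKO tumour below every WT tumour (limma adjusted p = 0.225). Over all 30 dimmer probe sets, 26 went the same way as the brightest one of their gene and 21 had TNKO tumours 1 and 2 on top. Taking the widest probe set of each gene, a choice made after the values were seen, 28 of the 32 members had these 2 tumours as the highest. Fabp4 gave the same order of all 6 tumours in 4 of its 4 probe sets, and Cd36 in 3 of 3. Other genes gave less agreement. TNKO tumours 1 and 2 were on top in 1 of the 3 dimmer probe sets of Gpd1 and in 0 of 2 of Pck1. They were so in 0 of 1 of Lipe and in 0 of 1 of Pnpla2. None of these dimmer probe sets spanned more than 0.000178.

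The comparison of host genotypes asked whether a host without tenascin-C altered these genes. No member passed in the limma fit over 45037 probe sets: 0 of 32 had an adjusted p under 0.05, where 0.175% of probe sets did (of all genes, 0.044% higher and 0.077% lower), and the lowest adjusted p of a member was 0.132, for Lgals12. The mean was higher in TNKO hosts in 30 of the 32 members, against 57.6% of all genes, and in 20 of the 20 that spanned at least 0.001, against 67% of genes with such a span. At an unadjusted p under 0.05, 4 of 32 members were higher (Acvr1c, Lgals12, Slc2a4 and Cebpa), against 9.99% of all genes, and 0 were lower, against 8.43%. None of these 4 spanned 0.001, so 0 of the 20 wider members were among them, against 6.38% of genes with such a span. In 6 members every TNKO tumour was above every WT tumour (the same 4 with Ucp1 and Cdo1), against 15% of all genes. Only Ucp1 and Cdo1 of the 20 wider members were among these 6, against 18.3% of genes with such a span. The median difference was 1.46 residual SDs in the members and 0.283 in all genes, a residual SD being the spread of a probe set within the groups.

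Counts depended on single tumours and on the scaling. Without TNKO tumour 3, 25 of 32 members were higher at an unadjusted p under 0.05 (10.5% of all genes), while 0 had an adjusted p under 0.05. Groups did not overlap in 26 (24.1% of all genes). With this tumour left out, that is by definition the count of members with TNKO tumours 1 and 2 the 2 highest. It is therefore not a result apart from the order of tumours. Without WT tumour 1, groups did not overlap in 23 of 32 (20.4% of all genes), and 4 were higher at an unadjusted p under 0.05 (7.43% of all genes). Without WT tumour 2 or 3 the count at an unadjusted p under 0.05 was 2 (8.32% and 7.33% of all genes). After quantile normalization or with array medians subtracted, the whole array shifted by a median of -0.000538 or -0.000764, and 19 of 32 members were higher, namely the 20 wider ones without Sncg. With medians subtracted 8 members had a limma adjusted p under 0.05 (Fabp4, Adipoq, Lpl, Cidea, Car3, Cd36, Pck1 and Ucp1), as did 68 of all 45037 probe sets, and the fit took the SE of Adipoq as 0.0253 in place of 0.441.

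Other genes of fat metabolism were less uniform when genes of every span were counted. Of 24 further lipid metabolism genes, 19 were higher in TNKO hosts, 0 passed in limma over all probe sets, 4 were higher and 2 lower at an unadjusted p under 0.05, and 15 had TNKO tumours 1 and 2 as the 2 highest. Their lowest unadjusted p values belonged to Me1, which supplies NADPH for lipid synthesis (-7.91e-05, limma adjusted p = 0.102), the desaturase gene Scd2 (-0.00025, limma adjusted p = 0.137) and Gpam, the first enzyme of glycerolipid synthesis (3.08e-05, limma adjusted p = 0.146). None of these spanned 0.001. Of the 8 further lipid metabolism genes that did, 8 were higher in TNKO hosts, against 67% of genes with such a span. TNKO tumours 1 and 2 were the 2 highest in 7 of these 8, against 31.1%. Every TNKO tumour was above every WT tumour in 4 of these 8, against 18.3%. Over the 24 genes this held in 8 (15% of all genes), and in 2 every TNKO tumour was below every WT tumour (11.1% of all genes). Outside the naming rule, and chosen after the values were seen, Scd1, the main desaturase of fat, stood at 10.24, 10.18 and 10.18 in WT hosts and at 10.30, 10.27 and 10.18 in TNKO hosts. Pdk4, also named outside that rule, had the widest span of the 24, 0.195. It stood at 7.32, 7.36 and 7.29 in WT hosts and at 7.48, 7.39 and 7.38 in TNKO hosts, so its groups did not overlap. Acly and Fasn, which make fatty acids from citrate in fat and in many tumours, spanned 8.6e-07 and 0.000228. Of 19 further adipogenic regulators 11 were higher, with 2 higher and 4 lower at an unadjusted p under 0.05 and 0 called by limma. Cebpb (-3.38e-05, limma adjusted p = 0.114), Srebf1 (-0.000127, limma adjusted p = 0.127) and Ppard (-3.31e-06, limma adjusted p = 0.128) had the lowest p values.

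Of 10 further brown and beige fat genes 8 were higher, 1 of them at an unadjusted p under 0.05 and 0 called by limma. That one was Ppargc1a, a coactivator of heat production (5.71e-06, limma adjusted p = 0.0702), followed by Dio2 (-0.00474) and Zic1 (0.00664). Cox8b, a subunit of cytochrome oxidase found in brown fat and muscle and named after its values were seen, stood at 6.92, 6.94 and 6.91 in WT hosts and at 7.13, 6.98 and 6.94 in TNKO hosts. TNKO tumour 1 was the highest, with TNKO tumour 2 nearer to the other tumours than to it. Cox7a1, named in the same way, spanned 0.0269 and differed in order: its TNKO tumour 2 (6.3905) lay below WT tumour 2 (6.3907). Over the 10 genes, 3 had TNKO tumours 1 and 2 as the 2 highest (15.2% of all genes). Of the 4 that spanned at least 0.001, 2 did (31.1% of genes with such a span). Of 9 preadipocyte and fat stroma markers 6 were higher, and 0 were higher and 1 lower at an unadjusted p under 0.05, with 0 called by limma. That one was Dcn, decorin (-4.57e-05, limma adjusted p = 0.104), followed by Pdgfrb (-1.31e-05) and Dpp4 (0.000237).

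The genes most like the members were looked for by the order of the 6 tumours alone. Outside the member list, the genes with the order of Adipoq and the widest spans were Hp, Itih5, Lrg1, Serpina1b, Chchd10, Ces1d, Wfdc21, Gnai1, Rarres2 and Serpina3n. Hp encodes haptoglobin, a plasma protein that fat also makes, and stood at 9.14, 8.72 and 8.71 in WT hosts and at 9.43, 9.36 and 8.96 in TNKO hosts. Rarres2 encodes chemerin, which fat and liver secrete, and spanned 0.0139. Ces1d, a carboxylesterase of liver and fat, spanned 0.0361. The other 7, for which no tie to fat is claimed here, spanned from 0.00922 for Serpina3n to 0.0965 for Itih5.

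Markers of other cells under the skin differed between the same tumours, some against the adipocyte genes and some with them. Skeletal muscle markers were lowest in TNKO tumours 1 and 2 in 22 of 22 genes. Their summed log2 level was 144.47 and 145.26 in these tumours, 151.47 in TNKO tumour 3 and between 149.93 and 151.83 in WT tumours. Myh1, a fast myosin heavy chain, stood at 6.17 and 6.64 in TNKO tumours 1 and 2, at 9.28 in TNKO tumour 3 and between 8.65 and 9.44 in WT tumours. Mb, myoglobin, stood at 6.19, 6.29 and 7.22 in TNKO tumours 1, 2 and 3 and between 6.97 and 7.27 in WT tumours. WT tumour 2 was the highest of all 6 tumours in 17 of 22 muscle genes (2153 of all 18193 genes). WT tumour 1 was the highest of the WT tumours in 27 of 32 adipocyte genes (5528 of all genes). Slc2a4 and Car3 are expressed in both tissues.

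Of 14 hair and epidermis markers 9 were highest in TNKO tumour 3 and 5 in WT tumour 3. Their summed level was 111.31 in TNKO tumour 3 and between 90.60 and 91.06 in the other 5 tumours. Krtap8-1, a hair keratin-associated protein, stood at 12.60 in TNKO tumour 3 and at most at 6.15 elsewhere. Endothelial markers followed the adipocyte genes in part. TNKO tumours 1 and 2 were the 2 highest in 10 of the 18 genes, and 15 had their lowest value in WT tumour 3, with sums of 130.278 and 130.275 in TNKO tumours 1 and 2, 130.272 in TNKO tumour 3 and 130.267 to 130.272 in WT tumours. Their widest genes were Gpihbp1, which holds lipoprotein lipase on capillaries (span 0.00732), and Cldn5 (0.000905). Fibroblast markers had TNKO tumours 1 and 2 on top in 4 of 10, with sums of 108.60 in both against 108.58 in TNKO tumour 3 and 108.53 to 108.60 in WT tumours, and Dpt and Lum spanned most. Macrophage markers had them on top in 4 of 14 and were highest in WT tumour 1 in 6 of 14, with sums of 127.229 to 127.235 in WT tumours and 127.235 to 127.236 in TNKO tumours, and with Mrc1 and Msr1 spanning most. Of 9 mammary tumour cell markers 0 had TNKO tumours 1 and 2 on top, and Cdh1 and Krt7 spanned 0.00104 and 0.000546. The table holds no detection call. The lowest value on any array was 5.20, so a level does not show whether a marker was detected. The part of these cells in the adipocyte values was not tested.

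**Figure D4:**
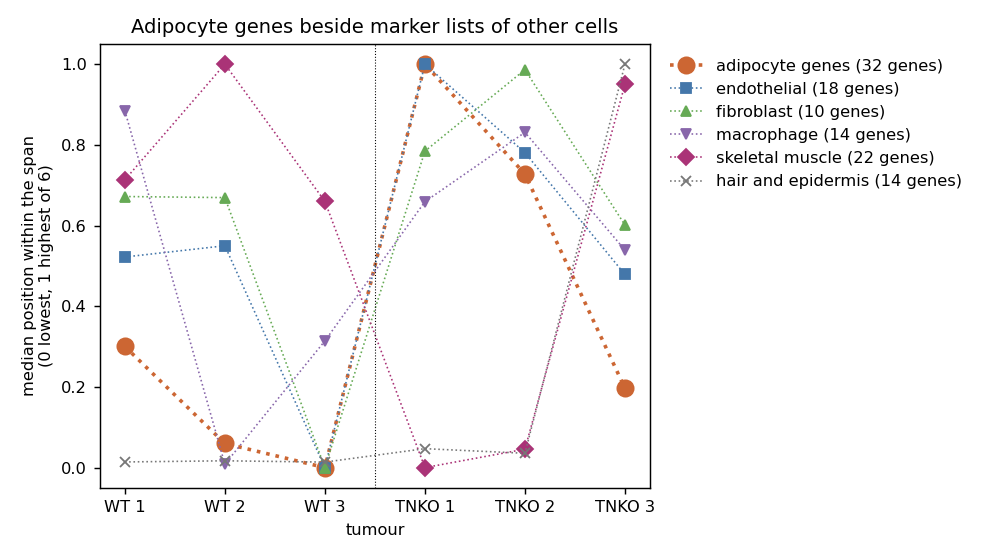
Median position of each tumour between the lowest (0) and highest (1) tumour, over the 32 adipocyte genes and over marker lists of other cells; dotted lines only join the points of a list. Adipocyte and endothelial genes are highest in TNKO 1, skeletal muscle genes are near 0 in TNKO 1 and 2, and the median of hair and epidermis genes is high in TNKO 3 alone.

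The arrays had medians of 6.5674 to 6.5676 in 5 of them and 6.5698 in TNKO tumour 3. On this scale the higher median of TNKO tumour 3 is not small, as the median gene spanned 5.73e-06. Subtracting array medians lowers every value of TNKO tumour 3 and raises those of the other 5 arrays. Of 64 control probe sets 0 had the order of Adipoq, 15 had TNKO tumours 1 and 2 as the 2 highest, and 8 had them as the 2 lowest. Among controls, 5 cover the 5′ end of a mouse transcript, and of these 0 had these 2 tumours on top. The number of arrays limits the precision of every value here.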

How the data were processed

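From each tumour 100 ng of total RNA was labelled with a 3′ in vitro transcription kit and measured on 1-colour Affymetrix arrays, per the labels' protocols. RNA was extracted with a kit for lipid-rich tissue, per the labels' protocols. The authors deposited 1 table of 45101 probe sets with normalized values, read here as log2. The submitters' processing notes name R 2.7.2. How probes were summarized and normalized, and the log base, were not given in the sources used here.

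The 64 control probe sets were left out. Gene symbols came from the platform annotation (2016), and all 62 member probe sets matched the RefSeq gene table (GRCm38.p6) by gene identifier. The difference TNKO minus WT was tested by limma 3.58.1 under R 4.3.3, with lmFit and then eBayes, two-sided, with Benjamini-Hochberg adjustment over 45037 probe sets and a threshold of 0.05. The fit was tested on simulated data. The main counts of members are set beside the same counts over all genes.

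The members and lists were chosen with earlier results of these data known, so the order of tumours in them is a description. All measured members are named. From the further fat lists the 3 genes with the smallest unadjusted p are named, from the marker lists the 2 widest, and of the genes with the order of Adipoq the 10 widest. Same-numbered tumours were not taken as pairs: their deviations from the group means correlated at 0.0289, -0.0157 and 0.00531. Between 21 and 43 values were identical between the arrays of a pair. Alternatives were the scaling, the moderation, array weights, a filter on dim probe sets, an offset of 16, a replicate block, the mean over probe sets and each tumour left out.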

Additional observations from a re-analysis of the deposited data

How the results depend on the processing

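The 32 members kept their direction with a trended or a robust eBayes, with array weights, an offset of 16, the mean over probe sets, the widest probe set (chosen after seeing the data) and the replicate block, and 0 were called under these. The direction of 10 of the 12 members that spanned under 0.001, and of Sncg, rests on the deposited scaling. With 3 tumours a group, of 1 mouse each, p-values rest on the spread between these mice. The eBayes step moves the spread of each probe set toward a value drawn from all probe sets, so they do not measure that spread alone.

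With quantile normalization the calls over all probe sets were 0 in limma (591 at an unadjusted p under 0.05), members at an unadjusted p under 0.05 and higher were 2, members higher in mean 19 and members with all TNKO above all WT 1. With array medians subtracted these member counts were 9, 19 and 1, and 8 members and 68 of all probe sets were called (87 at an unadjusted p under 0.05). In that fit the SE of Adipoq was 0.0253, against 0.441 as deposited, at a difference of 0.951, so these calls go with the smaller spread that this fit takes. Under either scaling TNKO tumours 1 and 2 were the 2 highest in 25 and 23 members. With only probe sets above the median level, which left 16 members, 285 probe sets were called, and the member counts were 2 at an unadjusted p under 0.05, 14 higher, 2 with all TNKO above all WT and 12 with TNKO tumours 1 and 2 the 2 highest. The replicate block gave 0 calls in limma over all probe sets (7816 at an unadjusted p under 0.05) and 9 members at an unadjusted p under 0.05, and it changed no other call. The labels do not state that same-numbered tumours share more than a number.

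Leaving out each tumour in turn gave 0 to 73 calls in limma over all probe sets (6807 to 8443 at an unadjusted p under 0.05) and 0 called members. Members higher at an unadjusted p under 0.05 were 2 to 25 (7.33% to 10.5% of all genes), and 29 to 32 were higher in mean. All TNKO were above all WT in 6 to 26 members (19.8% to 24.1% of all genes). For the scalings, the filter and the replicate block, these shares of all genes were not computed. Leaving out a WT tumour or TNKO tumour 3 gave 23 to 26 with TNKO tumours 1 and 2 the 2 highest. Without TNKO tumour 3 this count and that of all TNKO above all WT are the same by definition. Counting members with these 2 tumours on top gave 23 of 23 at a span of at least 0.0001 and 14 of 14 at a span of at least 0.01. Each span includes the values of these 2 tumours, so the counts are not independent of it.

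Under both scalings, where the whole array moved down, 10 of the 12 members that spanned under 0.001 reversed, as did Sncg among the 20 wider ones. With quantile normalization and with medians subtracted, in this order, the differences were -0.000381 and -0.000573 for Cebpa, -0.00048 and -0.000759 for Acvr1c, -0.00134 and -0.000762 for Agpat2, -0.000631 and -0.000751 for Slc2a4, -0.000377 and -0.00061 for Aqp7, and -0.000706 and -0.000758 for Thrsp. They were -0.000492 and -0.000763 for Tshr, -0.000112 and -0.000293 for Nnat, -0.000404 and -0.000214 for Sncg, -0.00043 and -0.000761 for Npr3, and -0.000362 and -0.00076 for Lgals12. Leaving out a tumour reversed 3 members, with differences from -1.09e-05 to 5.4e-06 for Dgat1, -2.97e-06 to 1.94e-06 for Retsat and -5.16e-07 to 3.79e-06 for Agpat2.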
